A study of Rattus norvegicus with 11 samples.

Results

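The genes described here carry the signal of hormone and nerve receptors through the heart muscle cell: the G protein alpha subunits Gnas, Gnai2, Gnai3 and Gnaq, the adenylyl cyclases Adcy5 and Adcy6, the regulatory subunits Prkar1a and Prkar2a of protein kinase A, the receptor kinase Grk5 and beta-arrestin 1, Arrb1. They were chosen by name, and every probe set whose platform annotation gave one of these 10 symbols alone was taken, a probe set being the group of short probes that gives 1 reading for a transcript. This gave 15 of the 8799 probe sets on the array, for 8 of the 10 genes. Gnaq had no probe set under its symbol, and Gnai3 appeared only on a probe set annotated to both Gnai1 and Gnai3. Total RNA of ventricles from Fischer-344 rats, an inbred strain used in ageing research, was hybridised to 11 expression arrays. The old group held 6 arrays from rats of 22 months and the young group 5 arrays from rats of 4 months, with no treatment named for either. The labels do not say whether each array came from its own animal, so p-values rest on a spread between samples that may be only technical.

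As background, an agonist on a beta-adrenergic receptor activates the stimulatory G protein, whose alpha subunit is made from Gnas. This subunit switches on adenylyl cyclase, in heart muscle chiefly the types made from Adcy5 and Adcy6. The resulting cyclic AMP binds the regulatory subunits of protein kinase A and frees its catalytic subunits, which speed and strengthen the beat. Muscarinic and adenosine receptors act through the inhibitory alpha subunits, Gnai2 among them, which restrain the same cyclases, while Gnaq couples other receptors to phospholipase C. Receptor kinases and arrestins uncouple receptors under sustained stimulation, and the ageing heart is known for a weaker response to beta-adrenergic agonists.

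The deposited values have nearly the same trimmed mean on every array, so they had been scaled and a difference is relative to the other transcripts of the same array. A difference is old minus young in log2 units, with its standard error (SE) from limma, after low intensities were raised to a floor of 47.4. In bulk tissue, fewer cells of a type and less RNA per cell cannot be told apart. The bacterial transcripts added as spike-in controls divided the arrays into 5 with bright controls and 6 with dim ones. The bright ones were young replicate 4 and old replicates 3 to 6, so this brightness overlapped with age. Values within each class are given where they matter. Young replicate 4, at 11.97 log2 units, was the dimmest of the bright arrays, the old ones running from 13.19 to 15.24. Differences within the bright class, or with the class as a block, may therefore still mix age with brightness. Old replicates 3 and 4 had 3' over 5' log2 ratios of 3.39 and 4.09 for the GAPDH control, against 0.77 or less in every other array, a ratio that increases as RNA is degraded. Heart muscle markers averaged 13.95 to 14.40 log2 units in the old arrays and 14.33 to 14.75 in the young ones. Of the other marker lists, all tested genes were higher in old for smooth muscle (4 of 4), atrial muscle (3 of 3) and red blood cells (3 of 3), and all were lower for endothelial cells (4 of 4). Their mean log2 levels per array ran from 7.13 to 10.88 in old and from 7.34 to 9.27 in young for smooth muscle, and from 10.61 to 13.94 in old and from 9.04 to 12.69 in young for atrial muscle. They ran from 10.93 to 14.90 in old and from 9.26 to 14.06 in young for red cells, and from 7.05 to 8.51 in old and from 7.38 to 8.86 in young for endothelium. Higher in old were also 5 of 8 fibroblast, 3 of 4 macrophage, 4 of 6 nerve, 3 of 5 fat cell and 3 of 4 skeletal muscle markers. No marker gene lay at the floor on every array, and the part of these cell types in the results below was not tested.

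No member differed between old and young ventricle past the threshold. Of the 15 probe sets, 13 were bright enough to be tested, for 7 genes, and 0 passed an adjusted p of 0.05 in limma, where 0% of all 5244 tested probe sets passed. At an unadjusted p under 0.05 there were likewise 0, against 7.51% of all tested probe sets (4.12% on the lower side and 3.39% on the higher). For each of the 13 the age groups overlapped, while 0.973% of all tested probe sets had groups that did not overlap. Of the 13 tested probe sets 12 were lower in old, with a median difference of -0.27, beside 50.6% lower and a median of -0.01 over all tested probe sets. Probe sets of a gene are not independent, and counted by gene 6 of 7 were lower, beside 50.3% of all tested genes. When the spike-in class was a block the count was 8 of 13, with a median of -0.17, beside 50.5% and -0.0077 over all tested probe sets. Without the arrays of high GAPDH ratio it was 11 of 13, beside 49.3% of all tested probe sets. The plot of member intensities by array shows how widely the arrays of each group were spread.

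**Figure D1:**
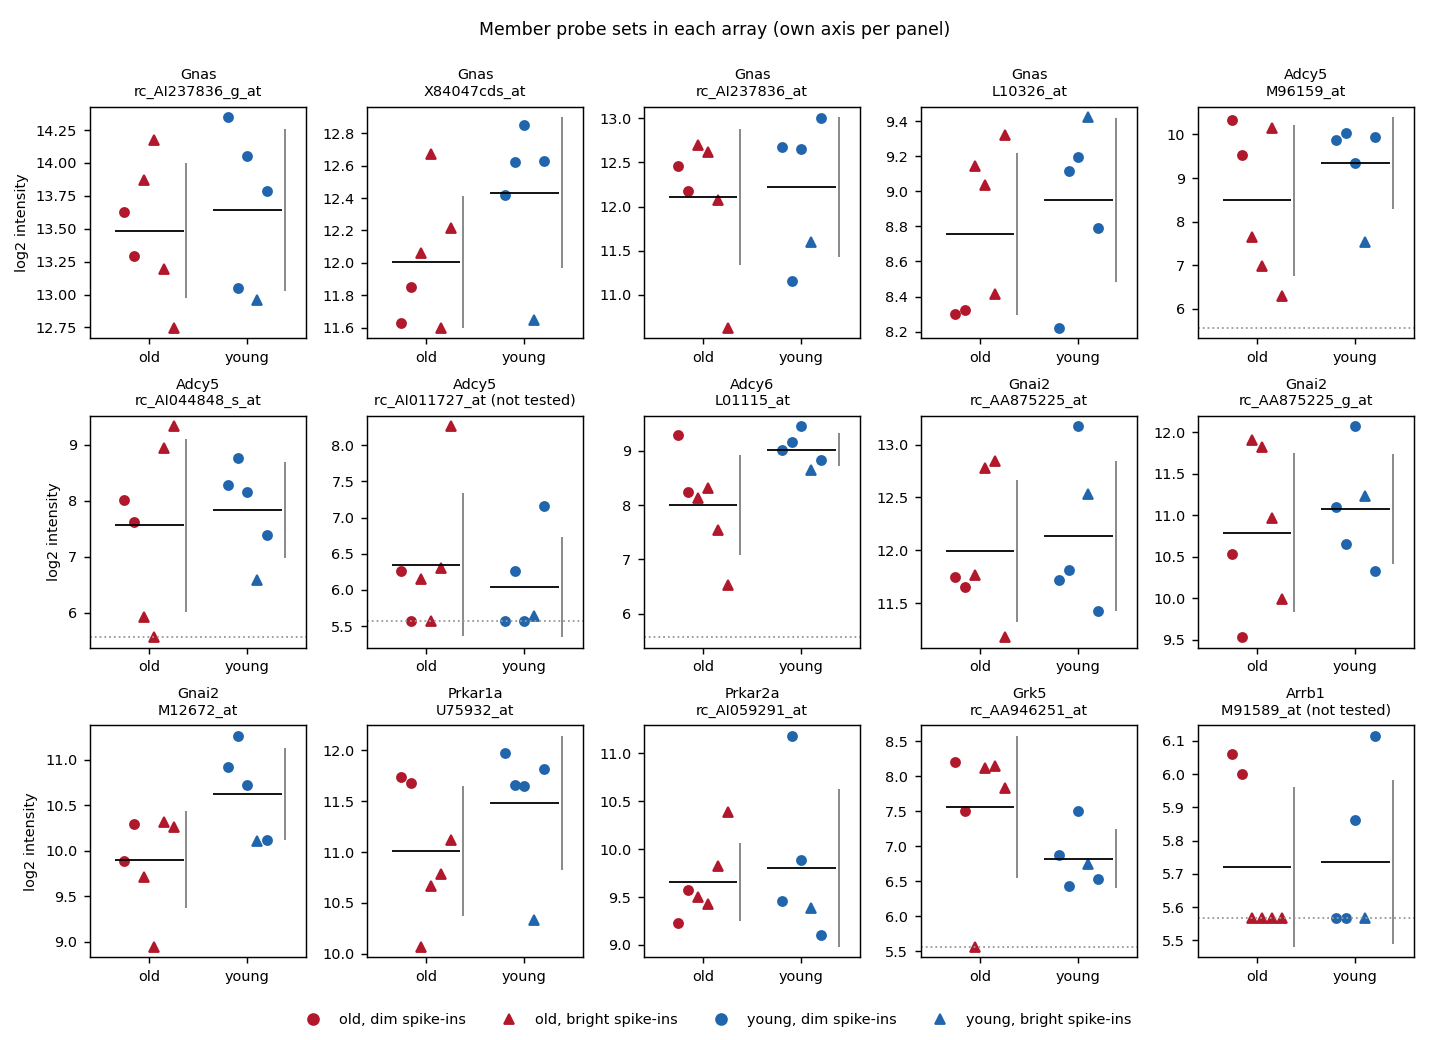
Log2 intensity of each of the 15 member probe sets in the 6 old (red, left) and 5 young (blue, right) arrays, one panel each with its own axis. Circles are arrays with dim and triangles arrays with bright spike-in controls, horizontal lines are group means, grey bars are the SD and the dotted line is the floor at 5.57. The old and young arrays overlap in every panel, and for Adcy6 (L01115_at) 5 of the 6 old arrays lie below every young one.

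For Gnas, the stimulatory alpha subunit, none of the 4 probe sets passed the test. Its brightest probe set, rc_AI237836_g_at, had a lowest, median and highest intensity of 6875.6, 11350 and 18469.8 in old, against 20867.1, 8476.8, 17036.8, 7980.4 and 14140.5 in young replicates 1 to 5. Both groups thus covered nearly the same range, and the lowest array was old replicate 6. The log2 mean was 13.48 ± 0.51 (SD, n = 6) in old, against 13.64 ± 0.61 (SD, n = 5) in young. The groups differed by -0.16 ± 0.34 (SE, limma adjusted p = 0.933), with a 95% interval from -0.86 to 0.54. A second reading of the same expressed sequence tag, rc_AI237836_at, differed by -0.11 ± 0.40, and L10326_at by -0.19 ± 0.41.

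The largest difference among the Gnas probe sets was that of X84047cds_at. It had a lowest, median and highest intensity of 3106.1, 3979.4 and 6538.8 in old, against 5466.6, 6307.4, 7399.6, 3207.9 and 6335.7 in young. Old replicate 4 reached the young level and young replicate 4 stood at the old level, and 5 of 6 old arrays were under the mean of the young ones. The difference was -0.43 ± 0.30 (SE, limma adjusted p = 0.756), and Gnas X84047cds_at differed by -0.63 ± 0.30 without young replicate 4 (limma adjusted p = 0.541). Within the dim arrays it was -0.89 (2 old, 4 young) and within the bright ones 0.49 (4 old, 1 young). All 4 Gnas probe sets were lower in old, yet they did not follow each other closely over the 11 arrays: Pearson's r was 0.86 between both readings of the shared tag and -0.42 to 0.48 between the other pairs.

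Adcy6, one of the main cyclases of heart muscle, had the largest difference of all members. Its probe set L01115_at read 92, 290.85 and 623.7 in old as lowest, median and highest, against 517.7, 574.8, 699.4, 401.8 and 458 in young. Old replicate 1 stood inside the young range, and the other 5 old arrays lay below the lowest young one, with old replicate 6 far down. The mean was 8.01 ± 0.92 (SD, n = 6) log2 units in old, against 9.02 ± 0.31 (SD, n = 5) in young. The groups differed by -1.02 ± 0.49 (SE), which puts old at 0.494 times the young level. The unadjusted p was 0.0511 and the limma adjusted p 0.661, with a 95% interval from -2.04 to 0.01. The difference was -0.36 in the dim and -1.02 in the bright arrays, -0.61 ± 0.52 when the spike-in class was a block, and -0.34 ± 0.50 with the spike-in signal as a covariate.

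Adcy5, the other main cardiac cyclase, was the most variable member. Through M96159_at it read 79.1, 467.75 and 1280.4 in old as lowest, median and highest, against 942.4, 1038.9, 652.9, 184.2 and 989.2 in young. Old replicates 1, 2 and 5 stood at or near the young level, while old replicates 3, 4 and 6 and young replicate 4 were far below. The mean was 8.49 ± 1.73 (SD, n = 6) log2 units in old, against 9.35 ± 1.05 (SD, n = 5) in young, and the difference of -0.86 ± 0.70 (SE) did not pass (limma adjusted p = 0.794). All 4 low arrays were among the 5 with bright spike-ins. Within the dim arrays the difference was 0.12 and within the bright ones 0.25, and when the spike-in class was a block it turned to 0.17 ± 0.62. Adcy5 M96159_at differed by -0.42 ± 0.66 without old replicate 6 and by -1.31 ± 0.70 without young replicate 4.

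The other probe sets of Adcy5 gave no common picture. In old, rc_AI044848_s_at ran from 21.4 to 642.8 around a median of 228.1, and in young from 96.1 to 435.8 around 284.8. Its difference was -0.27 ± 0.70 (SE, limma adjusted p = 0.946), and 0.64 ± 0.58 without the arrays of high GAPDH ratio. Old replicate 6 had the highest reading of this probe set and the lowest of M96159_at. The dim probe set rc_AI011727_at, with 2 old and 2 young arrays below the floor, was not tested and had means of 6.35 ± 0.99 (SD, n = 6) in old, against 6.04 ± 0.69 (SD, n = 5) in young.

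Gnai2, the inhibitory alpha subunit, was read by 3 probe sets of which all were lower in old. The brightest, rc_AA875225_at, had a lowest, median and highest intensity of 2316.2, 3466.45 and 7366.9 in old, against 3374.2, 3596.4, 9228.7, 5937 and 2748.9 in young. Both groups held arrays near the low end and arrays near the high end, and they overlapped throughout. The mean was 12.00 ± 0.67 (SD, n = 6) log2 units in old, against 12.13 ± 0.71 (SD, n = 5) in young. The groups differed by -0.14 ± 0.37 (SE, limma adjusted p = 0.949) with a 95% interval from -0.92 to 0.64. The second reading of that tag, rc_AA875225_g_at, differed by -0.29 ± 0.43.

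The third Gnai2 probe set, M12672_at, stood apart from the others. It read 492.8, 1087.8 and 1275.8 in old as lowest, median and highest, against 1937.8, 2456.3, 1687, 1100.4 and 1110.6 in young. Every one of the 6 old arrays was under the mean of the young ones, and young replicates 4 and 5 stood among the old arrays. The mean was 9.90 ± 0.53 (SD, n = 6) in old, against 10.62 ± 0.51 (SD, n = 5) in young. The groups differed by -0.72 ± 0.35 (SE) with an unadjusted p of 0.0542 and a limma adjusted p of 0.661. It was -0.66 in the dim and -0.30 in the bright arrays, and -0.43 ± 0.35 without the arrays of high GAPDH ratio. Over the 11 arrays its Pearson correlation was -0.14 with rc_AA875225_at and -0.24 with rc_AA875225_g_at.

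No value can be given for Gnai3 alone. The probe set rc_AI228247_at, annotated to both Gnai1 and Gnai3, which encode closely related inhibitory subunits, read 60.9, 363.45 and 689 in old as lowest, median and highest, against 204.1, 87.9, 223.6, 103.4 and 229.8 in young. Old replicate 6 was the lowest array of all and 4 old arrays lay above every young one. The difference was 0.92 ± 0.63 (SE, limma adjusted p = 0.753), 1.04 in the dim and 1.39 in the bright arrays. Gnai1 has its own probe set, M17527_at, which was too dim to be tested and stood at 6.89 ± 1.31 (SD, n = 6) log2 units in old, against 5.77 ± 0.45 (SD, n = 5) in young, where 4 of 5 young arrays lay at the floor.

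**Figure D2:**
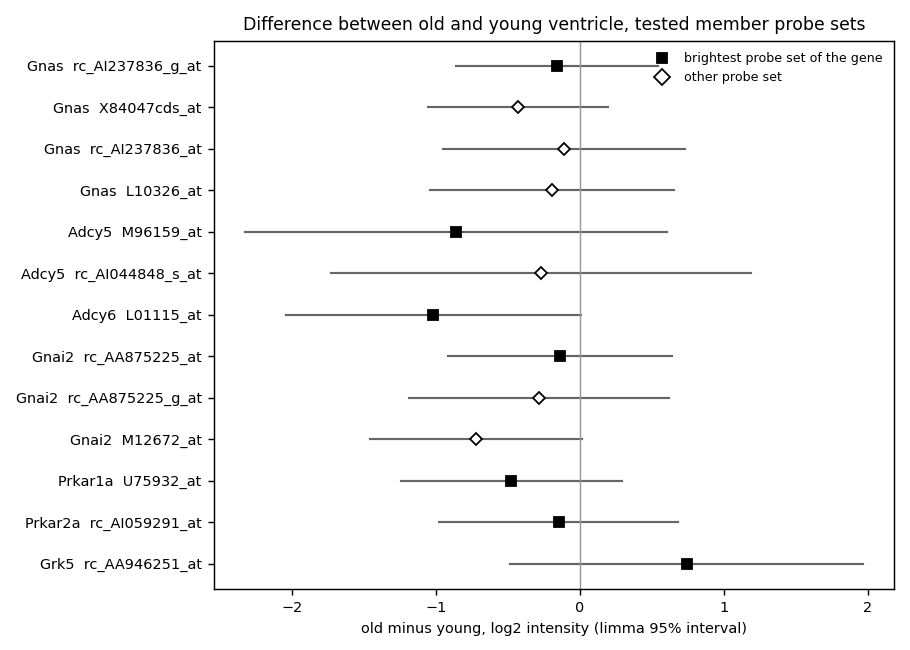
Old minus young difference in log2 intensity for the 13 tested member probe sets, with limma's 95% interval as a line. Filled squares are the brightest probe set of each gene and open diamonds the others. Each interval includes 0, those of Adcy6 (-2.04 to 0.01) and Gnai2 M12672_at (-1.46 to 0.01) by the least, and Grk5 alone lies to the right of 0.

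The stimulatory members were set against the inhibitory one within each array. The mean of Gnas, Adcy5 and Adcy6, each centred on its own mean over all arrays, was -0.31 ± 0.85 (SD, n = 6) in old, against 0.37 ± 0.55 (SD, n = 5) in young. Gnai2 on the same scale was -0.06 ± 0.67 in old and 0.08 ± 0.71 in young. Stimulatory minus inhibitory was -0.25 ± 0.89 (SD, n = 6) in old, from -1.20 to 1.09 over the arrays, and 0.29 ± 1.01 (SD, n = 5) in young, from -1.07 to 1.19. The contrast between the age groups was -0.54, smaller than the spread within either group, and no test was made of it because the members were chosen with results known.

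With Gnas alone as the stimulatory member the contrast was -0.02. With all 3 members it varied with the spike-in class, at 0.14 within the dim arrays, 0.31 within the bright ones and 0.20 with the class as a block, so that its direction turned. Gnai3 did not enter the inhibitory side, having no probe set of its own.

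**Figure D3:**
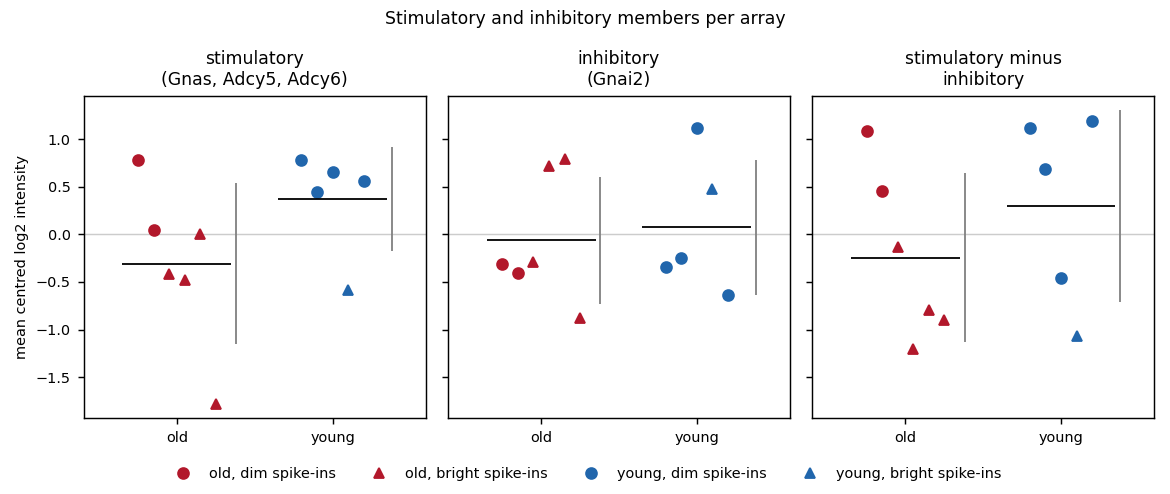
Mean centred log2 intensity per array of the stimulatory members (Gnas, Adcy5, Adcy6), of the inhibitory member Gnai2 and of their difference, in old (red, left) and young (blue, right) arrays. Triangles are arrays with bright spike-ins, horizontal lines are means and grey bars the SD. The difference averages -0.25 in old and 0.29 in young, with arrays of both groups from below -1 to above 1.

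Prkar1a, the type I regulatory subunit that holds the catalytic subunits of protein kinase A inactive, was split by the spike-in class, and its age groups overlapped. Its probe set U75932_at read 1074.6, 1996.85 and 3406.5 in old as lowest, median and highest, against 4021.9, 3226.5, 3209.7, 1287.7 and 3595.2 in young. Old replicates 1 and 2 stood with 4 of the young arrays, and young replicate 4 with the other 4 old ones. The difference was -0.47 ± 0.37 (SE, limma adjusted p = 0.781), and it turned to 0.08 ± 0.31 when the spike-in class was a block. Prkar1a U75932_at differed by -0.76 ± 0.35 without young replicate 4 (unadjusted p = 0.0423, limma adjusted p = 0.524) and by -0.29 ± 0.36 without old replicate 3. The 5 bright arrays, from 10.07 to 11.12 log2 units, lay wholly below the 6 dim ones, from 11.65 to 11.97.

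Prkar2a, the type II regulatory subunit, was at 9.66 ± 0.41 (SD, n = 6) log2 units in old, against 9.80 ± 0.82 (SD, n = 5) in young through rc_AI059291_at. Its intensities were 600.2, 742.4 and 1335.6 in old as lowest, median and highest, against 703.6, 2326, 943.6, 668.9 and 550.4 in young. Young replicate 2 was the highest of all arrays and set the young mean. The difference was -0.15 ± 0.40 (SE, limma adjusted p = 0.949), and 0.20 ± 0.36 without that array.

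Grk5, a receptor kinase that phosphorylates activated receptors at the membrane, was the only tested member with a higher mean in old. The probe set rc_AA946251_at read 17.9, 253.45 and 294.6 in old as lowest, median and highest, against 116.9, 86.7, 182.1, 107.8 and 92.5 in young. Old replicate 3 was below the floor, 4 of the other old arrays lay above every young one, and old replicate 2, at 181, lay just under the highest young array. The mean was 7.56 ± 1.01 (SD, n = 6) log2 units in old, against 6.82 ± 0.42 (SD, n = 5) in young. The groups differed by 0.74 ± 0.59 (SE, limma adjusted p = 0.788), which puts old at 1.67 times the young level. Without old replicate 3 Grk5 rc_AA946251_at differed by 1.14 ± 0.52, with an unadjusted p of 0.0403 and a limma adjusted p of 0.758. Within the dim arrays it was 1.01 and within the bright ones 0.67. The young mean lay under the filter on dim probe sets, so Grk5 entered the test through the level of the old arrays.

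Arrb1, the arrestin that binds phosphorylated receptors, gave no usable level. Of its readings through M91589_at, 4 of 6 in old and 3 of 5 in young lay below the floor, and the highest was 69.3. It was not tested, and the means at the floor or close to it were 5.72 ± 0.24 (SD, n = 6) in old, against 5.74 ± 0.25 (SD, n = 5) in young.

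Among themselves the 7 tested member genes varied mostly apart. Over the 11 arrays, which share their scaling and spike-in class, the median Pearson correlation of the 21 pairs was 0.11, from -0.51 for Gnas with Prkar2a to 0.67 for Adcy5 with Prkar1a. The next highest pair was Adcy5 with Adcy6, at 0.60. Through their brightest probe sets, all 3 of these genes were lower in the arrays with bright spike-ins. Bright minus dim was -2.12 for Adcy5, -1.17 for Adcy6 and -1.16 for Prkar1a, and 1.85%, 14.1% and 14.5% of all tested probe sets had a larger difference of either sign. For Gnas it was -0.30, which 66.5% exceeded, and for Gnai2 0.30, which 66.8% exceeded. Other probe sets did not all follow: bright minus dim was -0.77 for Adcy5 rc_AI044848_s_at, which 30.5% exceeded, and 0.32 for the untested rc_AI011727_at. It was 0.41 for Gnas L10326_at and -0.67 for Gnai2 M12672_at, opposite in sign to the brightest probe sets. The other probe sets of Gnas (-0.29 and -0.43) and Gnai2 (0.48) had the sign of the brightest. Why these levels move with spike-in brightness was not tested.

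**Figure D4:**
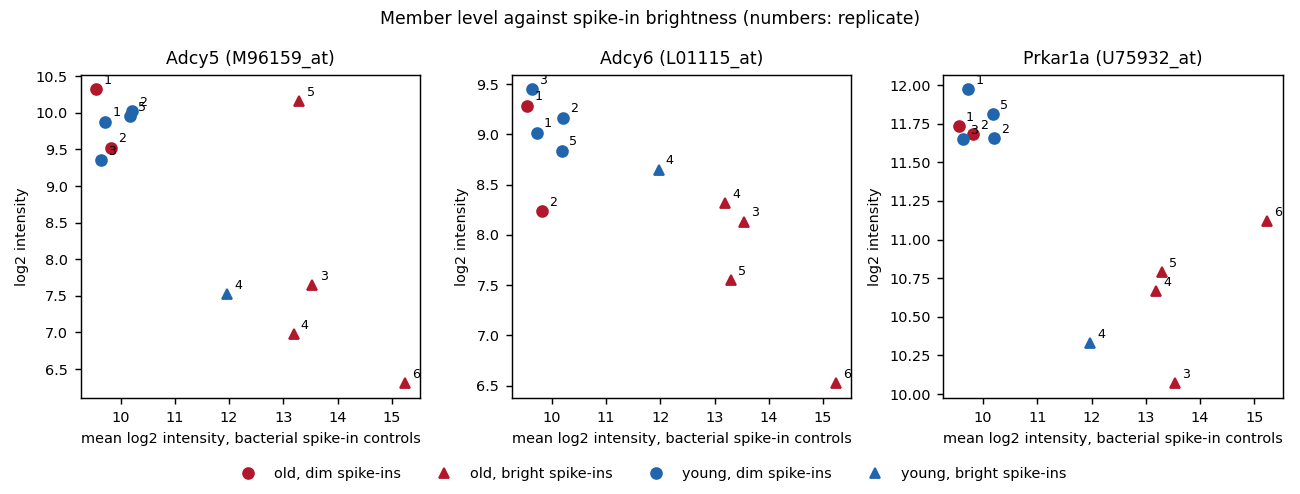
Log2 intensity of Adcy5, Adcy6 and Prkar1a (vertical axes) against the mean log2 intensity of the bacterial spike-in controls (horizontal axis) in each array, old in red, young in blue, with replicate numbers. The 5 arrays with bright spike-ins (triangles) have lower Prkar1a than all 6 others, and 4 of them, including young replicate 4, have the lowest Adcy5 (M96159_at).

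By likeness over the 11 arrays, the genes with the highest Pearson correlation to Gnas among 3205 were Ywhab (0.88) and Ywhah (0.87), which encode 14-3-3 adaptor proteins, and Myl12b (0.86), a regulatory light chain of myosin. For Gnai2 they were Abat (0.88), the aminotransferase that breaks down GABA, Crybb1 (0.86), a lens crystallin, and Gsk3a (0.84), a glycogen synthase kinase. These are the highest of many correlations and are given as a description.

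The rest of the pathway was read through 122 further genes, of which 86 were on the array and 68 were tested. None passed the adjusted threshold in either direction in limma. Of the 68, 35 were higher and 33 lower in old, with a median difference of 0.015, beside -0.0053 over all 3206 tested genes. At an unadjusted p under 0.05 there were 8, or 11.8%, 4 of them higher and 4 lower, beside 6.86% of all tested genes. The plot of pathway lists shows that most lists held genes on both sides of 0.

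**Figure D5:**
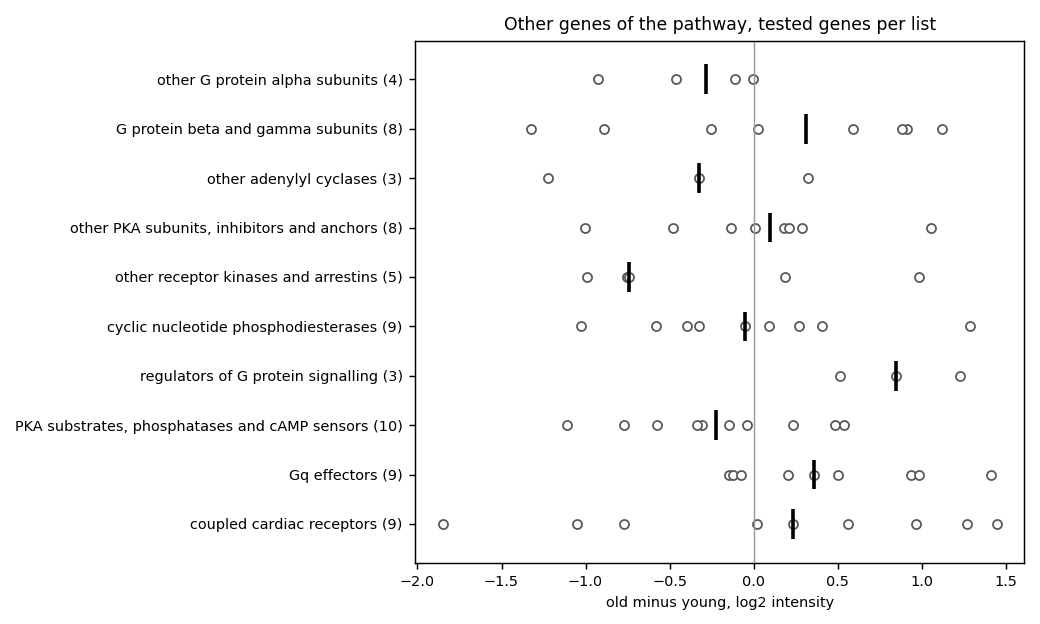
Old minus young difference in log2 intensity for each tested gene (open circles) of 10 lists of other pathway genes, with the number tested in brackets and the list's median as a bar. Only the other alpha subunits (4 of 4 lower) and the regulators of G protein signalling (3 of 3 higher) lie wholly on one side of 0. Of these, Gna15 is at -0.0022, and Rgs9 entered the test through the old arrays. In all lists 0 genes passed the adjusted threshold.

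Among the other G protein subunits, 4 of 4 tested alpha subunits were lower in old, beside 50.3% of all tested genes. They ran from Gna15, at -0.0022 ± 0.60 (SE), to Gnaz, at -0.92 ± 0.56. Gna12 was at -0.11 ± 0.37. Gnao1, a subunit abundant in nerve, was at -0.46 ± 0.64 through M17526_g_at and 0.24 ± 0.65 through M17526_at. Of 8 beta and gamma subunits 5 were higher. Among these 5, Gng8 and Gng10, with young means of 6.98 and 6.85 log2 units, entered the test through the old arrays, and Gng7 was at 0.03 ± 0.48. Gng5 differed by -0.25 ± 0.31 and Gnb1 by 0.91 ± 0.44 through U88324_g_at, while its other probe sets gave 0.50 ± 0.43 and -0.25 ± 0.57. Gnb1 U88324_g_at differed by 0.26 ± 0.38 when the spike-in class was a block, and by 0.37 ± 0.41 without the arrays of high GAPDH ratio. Among the cyclases, 2 of 3 were lower: Adcy3 differed by -0.33 ± 0.45 and Adcy2 by -1.23 ± 0.51, with an unadjusted p of 0.0261 and a limma adjusted p of 0.572.

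Downstream, 5 of 8 further kinase A subunits, inhibitors and anchors were higher. Prkaca, the main catalytic subunit, differed by -0.48 ± 0.51 (SE), and Pkia, a peptide that inhibits it, by 0.01 ± 0.39. Other probe sets of Pkia gave 0.02 ± 0.42 and -0.39 ± 0.48. Of 9 phosphodiesterases, which break down cyclic nucleotides, 4 were higher. Pde3b, higher in old with a young mean of 6.36 log2 units, entered the test through the old arrays. Pde1c, lower in old with an old mean of 6.93, entered it through the young ones. Pde4c differed by 0.09 ± 0.44, and Pde4a by -0.40 ± 0.40 through M26715_at and -0.02 ± 0.59 through M25348_s_at. Among substrates, phosphatases and sensors 7 of 10 were lower. Tnni3, the cardiac troponin I, differed by -0.04 ± 0.34, and Pln, the brake of the calcium pump that protein kinase A releases, by -0.57 ± 0.57. Bright minus dim was -2.08 for Pln, close to the -2.12 of Adcy5 M96159_at, and the Pln difference was 0.51 ± 0.37 when the spike-in class was a block.

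In receptor uncoupling, 2 of 5 other receptor kinases and arrestins were higher, and the median of the 5 differences was -0.74. The lower ones, named after their values were seen, were Grk2 at -0.75 ± 0.59, Grk3 at -0.99 ± 0.69 and Grk4 at -0.74 ± 0.59. A further Grk2 probe set, S48813_s_at, was too dim to be tested and differed by 0.71. The old mean of Grk3, 6.76 log2 units, lay under the filter on dim probe sets, so Grk3 entered the test through the young arrays. The higher ones were Grk6 at 0.18 ± 0.32 (SE) through AF040750_at and Arrb2, the second beta-arrestin, at 0.98 ± 0.44 (unadjusted p = 0.0382, limma adjusted p = 0.639). The other probe set of Arrb2 differed by 0.79 ± 0.62 and that of Grk6, Y09365cds_s_at, by 1.73 ± 0.75. This Grk6 probe set, with a young mean of 6.37 log2 units, entered the test through the old arrays. All 3 tested regulators of G protein signalling, which speed the switching off of alpha subunits, were higher, out of 7 on the array. Rgs9, 1 of the 3, had a young mean of 6.75 log2 units and entered the test through the old arrays. Rgs14 differed by 1.23 ± 0.47, at 9.59 log2 units in old and 8.36 in young (limma adjusted p = 0.56), and Rgs19 by 0.85 ± 0.55. Of 9 effectors of the Gq branch 6 were higher, with Itpr3 at -0.07 ± 0.31 and Prkce at -0.12 ± 0.38. Itpr1, among the higher ones with a young mean of 6.68 log2 units, entered the test through the old arrays.

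At the head of the pathway, 6 of 9 tested receptors were higher. Among these, Adra1a and Agtr1b, with young means of 6.69 and 6.81 log2 units, entered the test through the old arrays, like Adora1 below. Chrm2 counted as higher at 0.02 ± 0.45 (SE). Adra1d and Adra1b, alpha-1 receptors that couple to Gq, differed by -1.05 ± 0.63 (SE) and -0.77 ± 0.47. The other tested alpha-1 receptor, Adra1a, went the other way, at 1.27 ± 0.66. For Adrb1, the main beta receptor in cardiac cells, the mean was 6.54 ± 0.80 (SD, n = 6) log2 units in old, against 8.39 ± 0.70 (SD, n = 5) in young. The groups differed by -1.85 ± 0.57 with an unadjusted p of 0.00416 and a limma adjusted p of 0.537. It was -0.97 in the dim and -2.56 in the bright arrays, and Adrb1 D00634_at differed by -1.56 ± 0.63 when the spike-in class was a block (unadjusted p = 0.0226) and by -1.45 ± 0.65 with the spike-in signal as a covariate (unadjusted p = 0.0382). The old mean lay under the filter on dim probe sets, so Adrb1 entered the test through the level of the young arrays. The remaining genes with an unadjusted p under 0.05, named after their values were seen, were Gnb3 at -1.32 ± 0.56, Ppp1ca at -1.11 ± 0.45, Plcb3 at 1.41 ± 0.56 and Adora1, the inhibitory adenosine receptor, at 1.45 ± 0.52. Adora1, with a young mean of 6.77 log2 units, entered the test through the old arrays. With the spike-in signal as a covariate, Ppp1ca S78215_s_at differed by -0.20 ± 0.37 and Gnb3 L29090cds_at by -0.66 ± 0.61, and without old replicate 6 Gnb3 differed by -0.76 ± 0.33.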

How the data were processed

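The authors' deposited table holds 1 linear intensity per probe set and array, from 0.2 to 307756. How background was corrected and by which software is not stated in any label. With 2% trimmed from either end, array means were 500.47 to 500.96, and the scaling by the authors was kept. Intensities under the 20th percentile (47.4) were set to it before log2 was taken. The 59 control probe sets, and probe sets with a mean under the 40th percentile, were left out. The remaining 5244 were tested, old against young, in limma 3.58.1 (R 4.3.3) with a trended prior variance, adjusting by Benjamini-Hochberg at 0.05. The brightest tested probe set stood for a gene (3206 genes). Precision is limited by how few arrays there are (median SE 0.56). Symbols came from GEO's platform annotation, of which 6985 of 7006 single ones matched RefSeq (GRCr8) by gene number, and 0 changed. The members, lists and alternatives were chosen with earlier results of these data known. Named were all member probe sets, Adrb1, the 2 brightest tested genes of each pathway list and, for Gnas and Gnai2, the 3 genes most correlated. Other genes were named after their values were seen. In simulated data for the comparison of old with young (5 runs, 5244 probe sets, floor applied), limma found 8.8% of 2-fold and 56.8% of 4-fold differences. It found 80% of 8-fold and 96.4% of 16-fold ones, with 37 of 642 calls false. Each run held 200 such differences and noise drawn independently, without spike-in class or RNA quality. These rates therefore need not hold for the real arrays, where 0 probe sets passed. Alternatives covered the floor, filter, scaling, variance model, replicate block, spike-in brightness, array quality, threshold, choice of probe set and each array left out; counts of direction under each, and differences within spike-in classes, were added after seeing the data.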

Additional observations from a re-analysis of the deposited data

Results flagged for a closer look

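Within the age groups, 4 of 26 sets of member readings held 1 array far from the rest by Dixon's test, where chance gives about 1 in 20. In old, replicate 6 read 10.63 log2 units for Gnas (rc_AI237836_at), with the next old array at 12.07. Also in old, replicate 3 read 5.57 for Grk5 (rc_AA946251_at), which is the floor, with the next at 7.50. In young, replicate 4 read 7.53 for Adcy5 (M96159_at) against 9.35 in the next young array, and 10.33 for Prkar1a (U75932_at) against 11.65. Young replicate 4 was the one young array with bright spike-ins, and for these probe sets it stood within the range of the old arrays with bright spike-ins.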

How the results depend on the processing

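No member probe set passed limma's adjusted threshold under any of the 25 alternatives, and their smallest adjusted p ran from 0.316 to 0.97. Over all probe sets 0 passed under each alternative except the one without old replicate 5, where 2 did (0 to 2 with each array left out). Adcy6, Grk5, Gnai2 M12672_at, Gnai2 rc_AA875225_g_at, Gnas X84047cds_at and Gnas L10326_at kept their direction under each of these alternatives, although within the bright arrays Gnas X84047cds_at was at 0.49. With each array left out, 10 to 12 of 13 members were lower in old, beside 49.6% to 52.1% of all tested probe sets. An unadjusted limma p under 0.05 was reached by 0 to 3 of the 13, beside 296 to 482 of all 5244. Quantile normalization gave 9 members lower, beside 57.5% of all tested probe sets, and the spike-in covariate 8, beside 49.1%. Medians over all probe sets of an array were 7.78 in old and 7.49 in young, so centring on them moved the median of all tested differences to -0.30, with 69.1% lower, and that of the members to -0.56. The arrays gave no sign that replicate numbers pair the samples, though so few arrays cannot settle it. The correlation of same-numbered arrays ran from -0.25 to 0.25, and 1 of 5 old arrays correlated best with its own number. With the replicate block 0 passed. The stimulatory minus inhibitory contrast of -0.54 ran from -0.73 to 0.25 over the alternatives, and from -0.88 to -0.32 with each array left out. The cause of the following turns in direction was not tested. Quantile normalization gave 0.0047 for Gnas rc_AI237836_g_at, 0.0043 for Gnas rc_AI237836_at and 0.032 for Gnai2. The replicate block gave 0.19 for Gnas rc_AI237836_at, 0.026 for Gnai2, 0.12 for Tnni3 and 0.022 for Itpr3. The spike-in class as a block gave 0.12 for Gnas rc_AI237836_at, 0.17 and 0.11 for Adcy5 M96159_at and rc_AI044848_s_at, 0.084 for Prkar1a, 0.091 for Gnao1, -0.081 for Grk6, 0.51 for Pln and 0.024 for Itpr3. The spike-in signal as a covariate gave 0.064 for Gnas rc_AI237836_g_at, 0.32 for rc_AI237836_at, 0.45 for Adcy5, 0.058 for Prkar1a, 0.41 for Gnao1, 0.012 for Adcy3, -0.18 for Grk6, 0.54 for Pln and 0.10 for Itpr3. Without the arrays of high GAPDH ratio the values were 0.64 for Adcy5 rc_AI044848_s_at, 0.085 for Gna12 and 0.054 for Prkce. Array weights gave 0.061 for Gnao1, 0.056 for Adcy3 and 0.12 for Itpr3. Median centring gave -0.28 for Pkia, -0.10 for Grk6 and -0.20 for Pde4c, and averaging the probe sets of each gene gave -0.12 for Pkia and 0.017 for Prkce. With each array left out, the range was -0.33 to 0.021 for Gnas rc_AI237836_g_at, -0.37 to 0.19 for rc_AI237836_at, -0.62 to 0.13 for Adcy5 rc_AI044848_s_at, -0.31 to 0.12 for Gnai2, -0.32 to 0.20 for Prkar2a, -0.31 to 0.090 for Gna12, -0.29 to 0.25 for Pkia, -0.30 to 0.44 for Pde4c, -0.20 to 0.12 for Tnni3, -0.22 to 0.022 for Itpr3 and -0.24 to 0.032 for Prkce. It was -1.31 to -0.42 for Adcy5 M96159_at, -0.76 to -0.29 for Prkar1a U75932_at, -0.51 to -0.033 for Gnai2 rc_AA875225_g_at and -1.54 to -0.76 for Gnb3 L29090cds_at. Without a turn in direction, Adcy2 M80550_at was at -0.66 with array weights, Plcb3 M99567_at at 0.94 with the spike-in covariate and Rgs14 U92279_at at 0.80 without young replicate 3.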
